A study of Mus musculus with 12 samples.

Results

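The 8 Kruppel-like factor genes Klf2, Klf3, Klf4, Klf6, Klf9, Klf10, Klf12 and Klf13 were followed in single mouse cells labelled as haematopoietic stem cells. They were taken by symbol, and 8 of the 22307 gene symbols in the tables are described here. Cytoplasmic polyadenylated RNA was read by single-cell tagged reverse transcription from cells sorted one per well into 96-well plates. The cells came from the AGM, the embryonic aorta-gonad-mesonephros region where blood stem cells arise from endothelium, from the fetal liver, where they expand, and from the bone marrow, where they are kept. There were 2 AGM, 5 fetal liver and 5 bone marrow plates, which gave 143, 454 and 423 cells after filtering. The series concerns mouse lines built for lineage tracing, but the labels of these plates give no line, age, sex, treatment or sort markers. Plates fall under 5 origin codes in their titles, which are 1 for AGM, 2 for fetal liver (plates 1 to 3, and plates 4 and 5) and 2 for bone marrow (plates 1 to 3, and plates 4 and 5). The tissue of bone marrow plates 4 and 5 comes from their titles alone. The labels do not tie a code to an animal. P-values for levels therefore rest on the spread between codes, which may be technical and which the model largely pools over genes. P-values for shares of cells rest on the spread between plates.

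Kruppel-like factors are zinc finger transcription factors that bind GC-rich and CACCC sequences in promoters and enhancers. Their DNA-binding ends are much alike, and their other ends recruit different partners. Klf2, Klf4 and Klf6 carry activation domains, Klf3 and Klf12 recruit the corepressor CtBP, and Klf9, Klf10 and Klf13 recruit the corepressor Sin3a. In blood and vessels the family is known for Klf2, which blood flow induces in endothelium and which keeps T lymphocytes quiescent, and for Klf1, the erythroid member.

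The genes lie on 8 chromosomes of GRCm38, by the GENCODE annotation. Klf2 is at chr8:72319033-72321656, Klf6 at chr13:5861482-5870394, Klf9 at chr19:23141226-23168134 and Klf3 at chr5:64803388-64832901, all on the plus strand. Klf4 is at chr4:55527143-55532466, Klf10 at chr15:38291463-38300706, Klf12 at chr14:99870632-100284679 and Klf13 at chr7:63886351-63938915, all on the minus strand. Genes on the opposite strand overlap Klf3 (Gm20033), Klf12 (4930517O19Rik and Gm16260) and Klf13 (Gm27252 and E030018B13Rik). Whether counting used the strand is not given in the sources, so UMIs of these genes cannot be told apart from those of the 3 members.

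The promoters of Klf2, Klf3, Klf9 and Klf13 are shown because these 4 members were lower in fetal liver than in AGM. Each runs 5′ to 3′ on the gene's strand and covers 250 bases before the RefSeq start and 50 after it, in the build GRCm38.p6. Capitals mark, on either strand, the CACCC box and the GC box with the letters GGGCGG, both of which this family is known to bind.
Klf2 (chr8:72318812-72319111, plus strand): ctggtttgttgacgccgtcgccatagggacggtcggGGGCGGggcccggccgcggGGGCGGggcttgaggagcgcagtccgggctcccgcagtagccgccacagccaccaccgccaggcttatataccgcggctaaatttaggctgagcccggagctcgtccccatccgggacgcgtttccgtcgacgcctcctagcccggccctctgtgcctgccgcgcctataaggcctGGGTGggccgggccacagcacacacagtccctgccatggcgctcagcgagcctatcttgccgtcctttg
Klf3 (chr5:64803271-64803570, plus strand): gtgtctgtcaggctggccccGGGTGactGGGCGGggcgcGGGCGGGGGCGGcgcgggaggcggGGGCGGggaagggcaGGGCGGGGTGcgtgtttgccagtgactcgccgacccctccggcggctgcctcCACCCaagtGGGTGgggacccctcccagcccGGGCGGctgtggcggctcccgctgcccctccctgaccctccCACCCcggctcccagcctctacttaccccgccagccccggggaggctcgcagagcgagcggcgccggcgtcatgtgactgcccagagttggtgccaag
Klf9 (chr19:23140976-23141275, plus strand): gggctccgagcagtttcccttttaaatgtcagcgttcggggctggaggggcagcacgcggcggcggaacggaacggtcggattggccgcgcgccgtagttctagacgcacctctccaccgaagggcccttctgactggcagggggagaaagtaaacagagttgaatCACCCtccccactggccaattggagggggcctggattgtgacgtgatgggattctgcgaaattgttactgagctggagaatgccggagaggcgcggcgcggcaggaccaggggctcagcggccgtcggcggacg
Klf13 (chr7:63938866-63939165, minus strand): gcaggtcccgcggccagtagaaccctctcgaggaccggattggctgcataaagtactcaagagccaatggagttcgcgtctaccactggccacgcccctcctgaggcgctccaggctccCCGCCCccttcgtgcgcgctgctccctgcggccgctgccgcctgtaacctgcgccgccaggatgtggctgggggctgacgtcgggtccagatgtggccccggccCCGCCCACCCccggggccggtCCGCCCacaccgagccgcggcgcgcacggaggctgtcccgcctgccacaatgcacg
The 4 windows do not look alike. Klf3 is the most crowded, with 5 CACCC and 6 GC boxes, some of which abut or overlap. Klf13 has 1 CACCC that overlaps a GC box next to the start, at -22 and -27 bases, and 3 GC boxes in all. Klf2 has 2 GC boxes far from the start, at -214 and -195 bases, and 1 CACCC at -19 bases. Klf9 has no GC box and a single CACCC, at -84 bases, which overlaps the AP-1 letters TGANTCA at -89 bases. Of the 8 members 7 matched a promoter entry. On either strand CACCC was in 5 of these 7, against 57.5% of 32851 mouse promoters, and the GC box in 5 of 7, against 35.7%. TGANTCA was in 1 of 7, against 7.81%. The cAMP response element TGACGTCA (1.79% of promoters) and the glucocorticoid response element (0.475%) were in none of the 7. The windows held 69.3% G and C in Klf2, 76.7% in Klf3, 63.3% in Klf9 and 72.0% in Klf13, against a median of 52.7% over all promoters. A match says only that the letters are in the window.

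Depth differed between tissues. A cell had a median of 159228 UMIs (unique molecular identifiers, which count captured RNA molecules) for AGM, 54303 for fetal liver and 59558 for bone marrow, and plate totals ran over 2596681 to 15977740. Levels are therefore given as CPM, the counts per 1000000 UMIs after TMM scaling. Levels of single cells and of parts of a tissue are given without TMM. Shares of cells with a UMI are also given after thinning to 20000 UMIs per cell. Thinning leaves out 2 AGM, 35 fetal liver and 31 bone marrow cells that are shallower. It matches the UMI total and not the number of genes those UMIs spread over. After thinning a cell held on average 3399 to 3438 genes on AGM plates, 2689 to 3557 on fetal liver plates and 1746 to 2162 on bone marrow plates, and the part of this in the share differences was not tested. Where a plate had no UMI of a gene, 3 UMIs would have been 0.303 to 1.16 unscaled CPM in the fetal liver and bone marrow plates, and 3 cells 3.12% to 4.23% of the plate's cells, and these limits cover counting error only. All 12 blood stem cell markers examined, among them Cd34, Procr and Hlf, were present in each tissue, with summed levels of 1298 to 1337 CPM in AGM plates, 1301 to 1493 in fetal liver plates and 1663 to 1901 in bone marrow plates. Single markers moved in both directions. From AGM to fetal liver to bone marrow, Procr averaged 313, 229 and 120 CPM and Cd34 330, 257 and 201. Hlf averaged 71.7, 156 and 222 CPM in the same order. Of the 12, 5 were higher and 1 lower in fetal liver against AGM, and 6 higher and 2 lower in bone marrow against AGM. In bone marrow against fetal liver 3 were higher and 1 lower. The AGM cells also held endothelial RNA throughout. The summed level of 18 endothelial markers was 2428 to 3077 CPM in AGM plates, 1046 to 1410 in fetal liver plates and 476 to 780 in bone marrow plates. Cdh5, which encodes the adhesion protein VE-cadherin, had a UMI in 97.2% of AGM cells and 4.63% of fetal liver cells and none in bone marrow, where Plvap, Mmrn2 and Flt1 were also at 0.

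In fetal liver against AGM 4 of the 8 members were lower (Klf2, Klf3, Klf9 and Klf13) and 0 were higher, where 1.91% of the 15472 tested genes were lower and 2.92% higher, or 4.83% in either direction. The median log2 fold change of the members was -1.32, and that of all tested genes was 0.05. In bone marrow against fetal liver 1 member was higher (Klf9) and 0 were lower, where 2.68% of tested genes were higher and 2.06% lower, or 4.73% either way, and the medians were 0.70 over the members and 0.00 over all genes. In bone marrow against AGM 2 members were higher (Klf9 and Klf10) and 2 lower (Klf2 and Klf6), where 5.29% of tested genes were higher and 3.63% lower, or 8.92% either way, and the medians were -0.13 and 0.04. The comparisons share samples, so their counts are not independent. The members were chosen with earlier results of these data known, so setting their counts against all genes, here and below, is a description and no test. Calls come from edgeR's quasi-likelihood test on UMIs summed by origin code, with a Benjamini-Hochberg adjusted p under 0.05 over all tested genes. AGM had 1 code and no measured spread of its own, and the model gives it the spread of the other tissues.

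**Figure D1:**
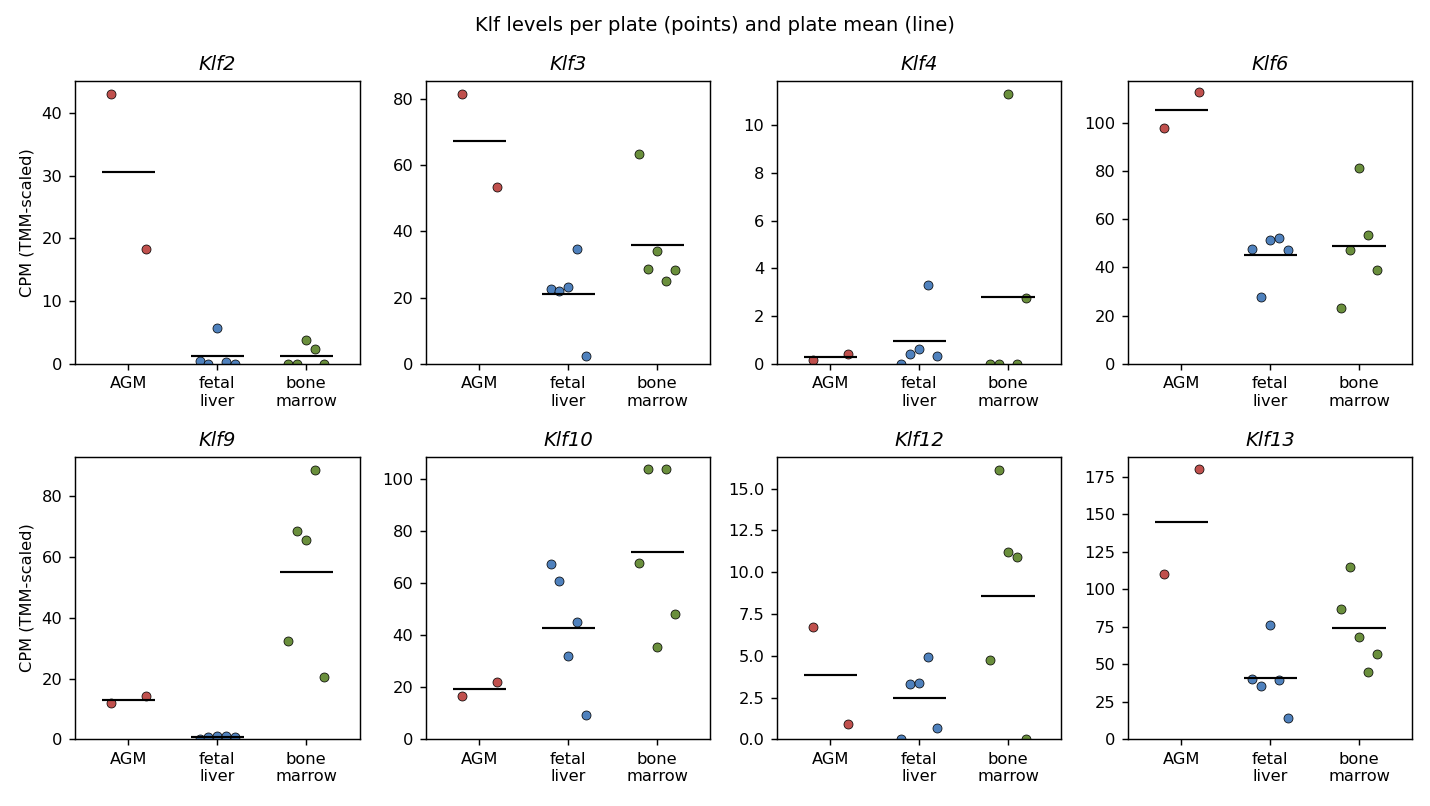
Level of each Klf gene (CPM, vertical axes from 0 and different for each gene) in each plate of AGM, fetal liver and bone marrow (points), with the plate mean as a line. Both AGM plates lie above all fetal liver and bone marrow plates for Klf2 and Klf6, and the 5 bone marrow plates of Klf9 lie above every other plate of that gene.

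Klf2 was high in AGM and low at both later sites. It stood at 43.0 and 18.3 CPM in the AGM plates. In fetal liver plate 3 had 5.67 CPM, plates 1 and 4 had 0.445 and 0.235, and plates 2 and 5 had no UMI. In bone marrow plate 3 had 3.77 CPM, plate 4 had 2.27, and plates 1, 2 and 5 had no UMI. The tissues did not overlap between AGM and either later site. Fetal liver averaged 1.01 CPM against 34.3 in AGM, a log2 fold change of -5.04 ± 1.15 (adjusted p = 0.0104 by edgeR). The error after each log2 fold change is its size over the root of the F statistic, an approximation of a standard error. Bone marrow averaged 1.04 CPM against the same 34.3 in AGM, a log2 fold change of -5.01 ± 1.16 (adjusted p = 0.00744 by edgeR). Bone marrow against fetal liver did not pass (0.03 ± 0.98, adjusted p = 1.0 by edgeR).

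Single cells held much of the Klf2 UMIs at the later sites and on AGM plate 2. In fetal liver 32 UMIs were found in 9 of 454 cells, and 1 cell held 62.5% of them. In bone marrow 34 UMIs were found in 12 of 423 cells, of which 11 were on plate 3, and 1 cell held 52.9%. In AGM 962 UMIs lay in 87 of 143 cells (60.8%, exact 95% binomial interval 52.3% to 68.9%, counting error only). On AGM plate 2 the 176 UMIs lay in 14 of 48 cells, and 1 cell held 52.3% of them, while on AGM plate 1 the top cell held 10.4% of 786. Without the cell with most Klf2 UMIs on each plate the log2 fold change was -6.70 in fetal liver against AGM (adjusted p = 0.0103 by edgeR). It was -6.61 in bone marrow against AGM (adjusted p = 0.00733 by edgeR). Where a plate had Klf2 UMIs, that cell held 66.7% to 100% of them in fetal liver and 62.1% to 100% in bone marrow. Leaving it out thus lowers the later sites more than AGM, and these fits could hardly have weakened the difference. After thinning, the share was 36.4% of cells on AGM plate 1 and 12.1% on AGM plate 2, although both plates share an origin code. In AGM cells with a UMI the level had a median of 16.2 CPM.

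The Klf2 calls were sensitive to single plates. The call in fetal liver against AGM was lost without AGM plate 1, fetal liver plate 4, or bone marrow plate 3 or 4 (adjusted p of 0.0575 to 0.168), and without fetal liver plates 4 and 5 together (0.104). It was also lost with each plate as a library (0.160). The call in bone marrow against AGM was lost without AGM plate 1, fetal liver plate 4 or bone marrow plate 5 (0.0591 to 0.104), and with each plate as a library (0.109). All of these alternatives kept the direction, with log2 fold changes of -7.24 to -4.12 without single plates in fetal liver against AGM.

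Endothelial markers moved with Klf2 between AGM and the later sites. Of 18 such markers 12 were lower in fetal liver than in AGM and 14 were lower in bone marrow than in AGM. Bone marrow also had 7 lower and 0 higher against fetal liver, where Klf2 did not pass. Sox17, an endothelial and fetal stem cell factor that is among the 18, averaged 0.793 CPM in fetal liver, 0.0199 in bone marrow and 65.8 in AGM, and was among the 3 genes whose level over the 12 plates was most like that of Klf2 (Pearson r = 0.889 on log2(CPM + 1)). The other such genes were Dpysl3 (r = 0.903) and Spns1 (r = 0.898), of 7821 genes searched. Such likeness is given as a description, since plates share tissues and origin codes. Immediate early genes, which growth signals and the handling of cells are known to induce quickly, moved too. Fos averaged 0.0442 CPM in fetal liver, 0.113 in bone marrow and 30.4 in AGM, with 1 and 2 UMIs at the later sites and 852 in AGM. Jun averaged 24.0 CPM in fetal liver, 14.1 in bone marrow and 201 in AGM. Of 25 immediate early genes tested, without Klf genes, 4 were lower and 0 higher in fetal liver against AGM. Against AGM, bone marrow had 6 lower and 1 (Myc) higher. Against fetal liver, where Klf2 did not pass, bone marrow had 3 higher and 0 lower. Their summed level was 361 to 635 CPM in fetal liver plates and 695 to 898 in bone marrow plates, against 1187 to 1387 in AGM plates. The smooth muscle and mesenchyme list, 7 genes of which were tested, had 2 lower in each of the same comparisons, Acta2 and Myl9, and a summed level of 0 to 7.97 CPM in fetal liver plates and 0.614 to 13.2 in bone marrow plates, against 69.8 to 150 in AGM plates. The part of any of these lists in the Klf2 result was not tested.

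The genes that act before and after Klf2 in endothelium were fixed as lists. The route of MEKK3, ERK5 and MEF2 factors, with the CCM complex and Heg1 that hold it back, had 10 genes tested, of which 0 were called in fetal liver against AGM and 0 in bone marrow against AGM. Heg1, which encodes a membrane protein that binds the CCM complex, was higher in bone marrow, with 59.9 CPM against 11.9 in fetal liver (2.33 ± 0.39, adjusted p = 8.04e-04 by edgeR). Of 6 known targets of Klf2, Cdkn1a, the cell cycle inhibitor p21, was lower at both later sites. It averaged 6.55 CPM in fetal liver against 59.2 in AGM (-3.18 ± 0.67, adjusted p = 0.00583 by edgeR), and 6.49 in bone marrow against AGM (-3.23 ± 0.68, adjusted p = 0.00340 by edgeR). Itgb7, an integrin subunit, was higher in bone marrow, with 506 UMIs against 75 in AGM (2.89 ± 0.83, adjusted p = 0.0321 by edgeR). The other targets did not pass in any comparison.

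Klf4, a close relative of Klf2 known for reprogramming somatic cells and for monocyte and endothelial functions, was sparse. It had 7 UMIs in 3 AGM cells, 34 UMIs in 9 fetal liver cells and 96 UMIs in 7 bone marrow cells. Single cells carried 67.6% of its fetal liver UMIs and 67.7% of its bone marrow UMIs. No comparison passed, and the largest log2 fold change, 3.33 ± 2.89 in bone marrow against AGM, had an adjusted p of 0.551 by edgeR. The share of cells with a UMI was 2.10% for AGM, 1.98% for fetal liver and 1.65% for bone marrow, before thinning. After thinning the plate shares averaged 0.602%, 0.537% and 1.03% in the same order, so no difference was detectable at this depth.

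Klf6, a widely expressed factor that injury and growth signals induce, stood at 97.8 and 113 CPM in the AGM plates. The fetal liver plates had 47.7, 27.9, 51.6, 52.1 and 47.1 CPM. The bone marrow plates had 23.1, 47.3, 81.4, 53.5 and 39.0 CPM. Both AGM plates were above all others, and the later sites overlapped throughout. Bone marrow averaged 46.9 CPM against 103 in AGM, a log2 fold change of -1.13 ± 0.34 (adjusted p = 0.0393 by edgeR). Fetal liver averaged 47.5 CPM against AGM, a change of nearly the same size that did not pass (-1.11 ± 0.33, adjusted p = 0.0625 by edgeR). Bone marrow against fetal liver gave -0.01 ± 0.28 (adjusted p = 1.0 by edgeR). The bone marrow call was lost without AGM plate 2, fetal liver plate 3 or 4, or bone marrow plate 1, 2, 4 or 5 (adjusted p of 0.0528 to 0.328), and without either fetal liver code (0.0611 and 0.0678). The fetal liver difference passed without AGM plate 1 (0.0362) and without either bone marrow code (0.00241 and 0.00386).

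The share of cells with a Klf6 UMI did not pass a test between bone marrow and fetal liver. A Klf6 UMI was found in 71 of 423 bone marrow cells (16.8%) and in 150 of 454 fetal liver cells (33.0%). After thinning the plate shares averaged 12.6% ± 5.59 in bone marrow and 24.2% ± 7.63 in fetal liver (SD, n = 5 plates each). This difference of -11.6 percentage points had p = 0.0397 in an exact two-sided permutation test over plates, and 0.114 after Benjamini-Hochberg adjustment over all tested genes, so it did not pass, and the plates overlapped. In that test 20.3% of all genes were lower in bone marrow at the smallest p it can give, 0.00794, and plates share origin codes, so p may be too small. In the cells with a UMI the median level was 241 CPM in bone marrow and 69.4 CPM in fetal liver. The plot of levels per cell shows the positive bone marrow cells in a high and a low band, with few cells between. Most cells of the low band had 1 or 2 UMIs, which is the counting limit. Many of them were on plate 3, where positive cells had a median of 2 UMIs. AGM also held Klf6-positive cells with 1 or 2 UMIs at such low levels. The genes most like Klf6 over plates were Eif4g3 (r = 0.887), Snhg9 (r = 0.858) and Tubgcp2 (r = 0.854).

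**Figure D2:**
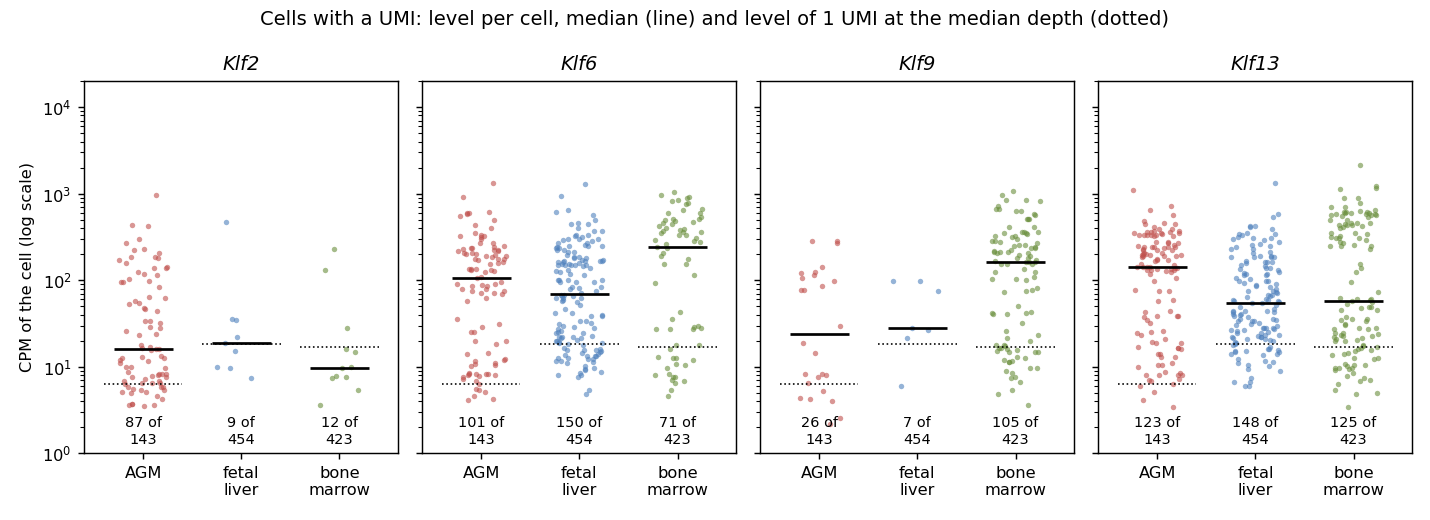
Level of Klf2, Klf6, Klf9 and Klf13 in each cell with a UMI (CPM of that cell, log axis) by tissue, with the median of these cells as a line, the level of 1 UMI at the tissue's median depth as a dotted line, and the number of cells with a UMI of all cells below. Klf9 was found in 26 AGM, 7 fetal liver and 105 bone marrow cells, and the medians of Klf6 lay at 107, 69.4 and 241 CPM.

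Within AGM, Klf6 stood higher in cells with a UMI of Ptprc than in those without. Ptprc encodes the blood cell surface protein CD45. The CPM of such parts of a tissue are without TMM and cannot be set against the tissue levels. Klf6 was at 167 CPM in 53 Ptprc-positive cells and 81.1 in 90 Ptprc-negative cells, with thinned shares of 63.1% and 40.6%. Klf9 was the other way round, with 4.86 CPM in Ptprc-positive and 22.0 in Ptprc-negative AGM cells and thinned shares of 5.29% and 11.9%. So was Klf10, with 10.2 and 29.6 CPM and thinned shares of 8.82% and 13.9%. Levels of the other members were also lower in the Ptprc-positive cells or alike. Klf2 stood at 30.7 and 46.3 CPM and Klf3 at 65.6 and 95.1, with thinned shares close to each other, of 29.1% and 28.2% for Klf2 and 46.4% and 46.2% for Klf3. Klf13 was at 154 CPM on both sides, with thinned shares of 60.3% and 67.1%. Klf4 and Klf12 had a UMI in 1 Ptprc-positive cell each, and in 2 and 5 Ptprc-negative cells. Klf6 also differed in other splits of the AGM cells. It was at 100 CPM in 95 cells with a UMI of Acta2 and 165 in 48 without, with thinned shares of 44.1% and 59.2%. By the proliferation gene Mki67 it was at 130 CPM in 82 cells with a UMI and 97.1 in 61 without. The Ptprc-positive cells were deeper, with a median of 171607 UMIs against 145176. All AGM cells came from 1 origin code, so these values carry no test.

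Klf9, a repressor that glucocorticoid and thyroid hormones induce in many mammalian cells, was lower in fetal liver than in AGM and higher in bone marrow than at both embryonic sites. Its AGM plates had 11.9 and 14.3 CPM. The fetal liver plates had 0.825, 1.05, 1.18 and 0.673 CPM, with no UMI on plate 1. The bone marrow plates had 32.2, 68.6, 65.6, 88.5 and 20.6 CPM. The 3 tissues did not overlap with each other. Fetal liver averaged 0.808 CPM against 12.7 in AGM (-3.99 ± 0.58, adjusted p = 1.48e-04 by edgeR). Bone marrow averaged 51.1 CPM against 0.808 in fetal liver (6.0 ± 0.58, adjusted p = 6.93e-07 by edgeR). Both of these calls held in each of the 26 alternatives, with log2 fold changes of -6.24 to -3.00 and 4.56 to 8.45. Bone marrow against AGM gave 2.01 ± 0.60 (adjusted p = 0.0395 by edgeR). That call was lost without AGM plate 1, fetal liver plate 2, 3, 4 or 5, or bone marrow plate 2, 3 or 4 (adjusted p of 0.0534 to 0.335), as well as with each plate as a library (0.0894).

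Klf9 followed the same order in its share of cells. A UMI was found in 26 of 143 AGM cells (18.2%), 7 of 454 fetal liver cells (1.54%) and 105 of 423 bone marrow cells (24.8%). The fetal liver cells held 21 UMIs in all, and at most 3 positive cells lay on 1 plate. After thinning the shares were 9.23% and 9.82% on the AGM plates. They averaged 18.3% ± 5.59 in bone marrow and 1.04% ± 0.634 in fetal liver (SD, n = 5 plates each), with no overlap. The difference of 17.3 percentage points had p = 0.00794, the smallest that the exact permutation test over plates can give, and 0.0376 after adjustment over all genes. At that smallest p 0.827% of tested genes were higher in bone marrow and 20.3% lower. All genes at that p share the same adjusted p. The value of 0.0376 therefore depends on how many genes reach the smallest p, most of them lower in bone marrow. The adjusted p was 0.0527 to 0.0599 when any bone marrow plate was left out, and 0.0525 when 2 UMIs counted as detection. The difference still passed when any fetal liver plate was left out. In bone marrow the thinned share was 22.4% in 60 cells with a UMI of the proliferation gene Mki67 and 17.3% in the other 363 cells, with median depths of 82317 and 56043 UMIs. It was 21.9% in 116 cells with a UMI of Itga2b, an integrin of megakaryocytes and early progenitors, and 16.6% in the 307 without one.

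**Figure D3:**
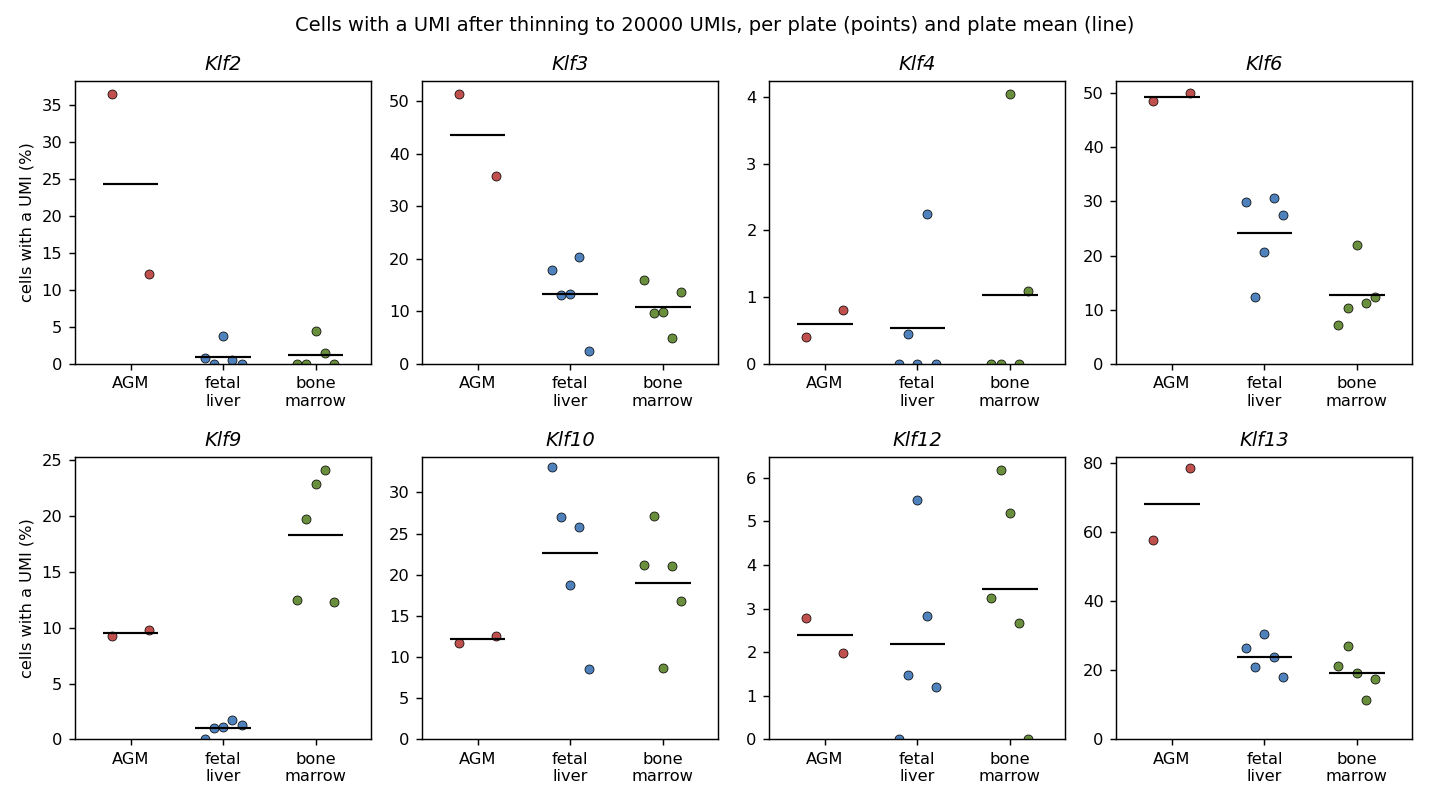
Percent of cells with a UMI of each Klf gene, thinned to 20000 UMIs per cell, in each plate (points) with the plate mean as a line, on vertical axes from 0 that differ between genes. The bone marrow plates of Klf9 lie at 12.3% to 24.1% and its fetal liver plates at 0 to 1.70%, while bone marrow and fetal liver plates overlap for the other 7 genes.

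The genes most like Klf9 over the 12 plates were Clec1a, a C-type lectin (r = 0.961), Nfic, a nuclear factor I gene (r = 0.956), and Tnfsf13, the cytokine APRIL (r = 0.956). Clec1a averaged 12.2 CPM for AGM, 0.0442 for fetal liver and 42.6 for bone marrow. Tnfsf13 averaged 4.74, 0.442 and 32.3 CPM in the same order. Of 8 genes listed for the glucocorticoid receptor and its induction, 2 were higher in bone marrow than in fetal liver and 0 lower. Tsc22d3, which encodes the glucocorticoid-induced leucine zipper, averaged 186 CPM in bone marrow against 84.5 in fetal liver (1.14 ± 0.24, adjusted p = 0.00727 by edgeR). It was also higher in bone marrow than in AGM, where it averaged 58.6 CPM (1.67 ± 0.32, adjusted p = 0.00139 by edgeR). Ddit4, a stress- and hormone-induced inhibitor of mTOR signalling, averaged 22.5 CPM in bone marrow against 3.97 in fetal liver (2.49 ± 0.66, adjusted p = 0.0336 by edgeR). None of the 8 passed in fetal liver against AGM, where Klf9 was lower. Markers of other cells also moved in bone marrow against fetal liver. Of the markers tested, 2 of 5 for megakaryocytes, 3 of 7 for granulocytes and 1 of 4 for T and NK cells (Nkg7) were higher and none of these lists had a lower one. The median log2 fold change of the T and NK list was -0.78. Of the B cell markers 1 of 4 (Cd79b) was lower and 0 higher, and of the endothelial markers 7 of 18 were lower and 0 higher. The lists for erythroid cells, macrophages, hepatocytes, and smooth muscle and mesenchyme had no call. The summed level was 179 to 392 CPM in bone marrow plates against 120 to 236 in fetal liver plates for the megakaryocyte list, where Gp1bb was at 0 in fetal liver. It was 750 to 1004 against 439 to 616 CPM for the granulocyte list, where Elane, Ctsg and Ltf were at 0 in bone marrow. It was 34.0 to 111 against 12.5 to 19.9 CPM for the T and NK list, where Cd3d was at 0 in bone marrow and Cd3e in fetal liver. It was 50.4 to 80.3 against 118 to 137 CPM for the B cell list. The endothelial sums are given above. Their part in the Klf9 result was not tested.

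Klf13, known for driving a chemokine gene in T lymphocytes, stood at 110 and 180 CPM in the AGM plates. The fetal liver plates had 40.0, 35.3, 76.4, 39.7 and 14.1 CPM. The bone marrow plates had 86.9, 115, 67.9, 44.9 and 57.1 CPM. AGM lay above all fetal liver plates, while 1 bone marrow plate was above AGM plate 1. Fetal liver averaged 41.6 CPM against 134 in AGM (-1.68 ± 0.35, adjusted p = 0.00473 by edgeR). The call was lost without fetal liver plate 4 (0.192) and when cells with a UMI were counted in place of UMIs (-0.95, adjusted p = 0.140 by edgeR). Bone marrow averaged 71.6 CPM and passed neither against fetal liver (0.79 ± 0.30, adjusted p = 0.161 by edgeR) nor against AGM (-0.90 ± 0.35, adjusted p = 0.133 by edgeR). Both passed in some reduced fits, the first without bone marrow plates 4 and 5 (0.00126), the second without AGM plate 1 (0.0225) or bone marrow plates 1 to 3 (0.00235). Klf13 was found in 86.0% of the AGM cells, 32.6% of those from fetal liver and 29.6% of those from bone marrow. After thinning the AGM plates had 57.8% and 78.6%, with 24.0% ± 4.80 in fetal liver and 19.3% ± 5.71 in bone marrow (SD, n = 5 plates each). The genes most like Klf13 over plates were Cep83 (r = 0.924), Atp2b1 and Wdr43 (r = 0.911 each).

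Klf10, which TGF-beta induces early in many cell types, was higher in bone marrow than in AGM. Its AGM plates had 16.7 and 21.9 CPM. The fetal liver plates had 67.4, 61.1, 31.9, 45.1 and 9.43 CPM. The bone marrow plates had 67.8, 104, 35.6, 104 and 48.2 CPM. All bone marrow plates were above AGM, and 4 of 5 fetal liver plates were, with plate 5 below. Bone marrow averaged 70.7 CPM against 18.4 in AGM (1.94 ± 0.43, adjusted p = 0.00498 by edgeR), a call lost without fetal liver plate 4 (0.391) and with each plate as a library (0.0603). Fetal liver averaged 46.0 CPM, which did not pass against AGM (1.32 ± 0.41, adjusted p = 0.0745 by edgeR). That difference passed without AGM plate 2 or fetal liver plate 5 (0.0417 and 0.0457) and without either bone marrow code (0.00678 and 0.00692). The share of cells with a UMI was 28.7% for AGM, 34.6% for fetal liver and 28.6% for bone marrow. After thinning the AGM plates had 11.7% and 12.6%, against 22.6% ± 9.39 in fetal liver and 19.0% ± 6.83 in bone marrow (SD, n = 5 plates each). The genes most like Klf10 over plates were Gbe1 (r = 0.891), Lpin2 (r = 0.887) and Zfp58 (r = 0.881). Of 9 TGF-beta receptor, Smad and early target genes tested, none was called in any comparison.

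Klf3, a repressor known from erythroid, fat and B cells, stood at 81.5 and 53.3 CPM in the AGM plates. The fetal liver plates had 22.7, 21.9, 23.3, 34.7 and 2.36 CPM. The bone marrow plates had 63.4, 28.6, 34.1, 24.9 and 28.2 CPM. Fetal liver plate 5, at 2.36, stood far below the other fetal liver plates. Fetal liver averaged 24.8 CPM against 71.4 in AGM (-1.53 ± 0.42, adjusted p = 0.0377 by edgeR). This call held in 11 of 26 alternatives, the fewest of the 4, and was lost without any plate but AGM plate 2 and fetal liver plate 1 (adjusted p of 0.0557 to 0.299) and without either fetal liver code (0.206 and 0.118). Bone marrow averaged 36.1 CPM and passed neither against fetal liver (0.55 ± 0.36, adjusted p = 0.478 by edgeR) nor against AGM (-0.98 ± 0.42, adjusted p = 0.185 by edgeR), though the second passed without bone marrow plates 1 to 3 (0.0232). Klf3 was found in 69.9% of the AGM cells, 19.2% of those from fetal liver and 14.7% of those from bone marrow. After thinning the AGM plates had 51.4% and 35.7%, with 13.4% ± 6.90 in fetal liver and 10.8% ± 4.25 in bone marrow (SD, n = 5 plates each). Its positive bone marrow cells had a median of 239 CPM, against 60.3 in positive fetal liver cells. As given for Klf6, UMIs per detected gene also differed between these tissues, and their part was not tested. The genes most like Klf3 over plates were Eea1 (r = 0.952), Pak2 (r = 0.943) and Ubn1 (r = 0.942).

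Klf12, the other member that binds CtBP, was sparse. It had 132 UMIs in 6 AGM cells, 76 UMIs in 19 fetal liver cells and 278 UMIs in 22 bone marrow cells, and 1 AGM cell held 73.5% of the AGM UMIs. Levels averaged 4.71 CPM for AGM, 2.93 for fetal liver and 7.28 for bone marrow, and no comparison passed (adjusted p of 0.596 to 0.865 by edgeR). The share of cells was 4.20%, 4.19% and 5.20% in the same order, and the plate shares after thinning averaged 2.38%, 2.19% and 3.45%. Of 8 corepressor genes that Klf proteins are known to bind, Hdac1, a histone deacetylase, was lower in bone marrow, with 82.4 CPM against 193 in fetal liver (-1.22 ± 0.23, adjusted p = 0.00228 by edgeR) and 152 in AGM (-0.88 ± 0.27, adjusted p = 0.0447 by edgeR). Ncor1, a scaffold of deacetylase complexes, was higher in bone marrow, with 138 CPM against 77.3 in fetal liver (0.84 ± 0.23, adjusted p = 0.0399 by edgeR). The 4 E3 ligases known for Klf proteins gave no call.

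**Figure D4:**
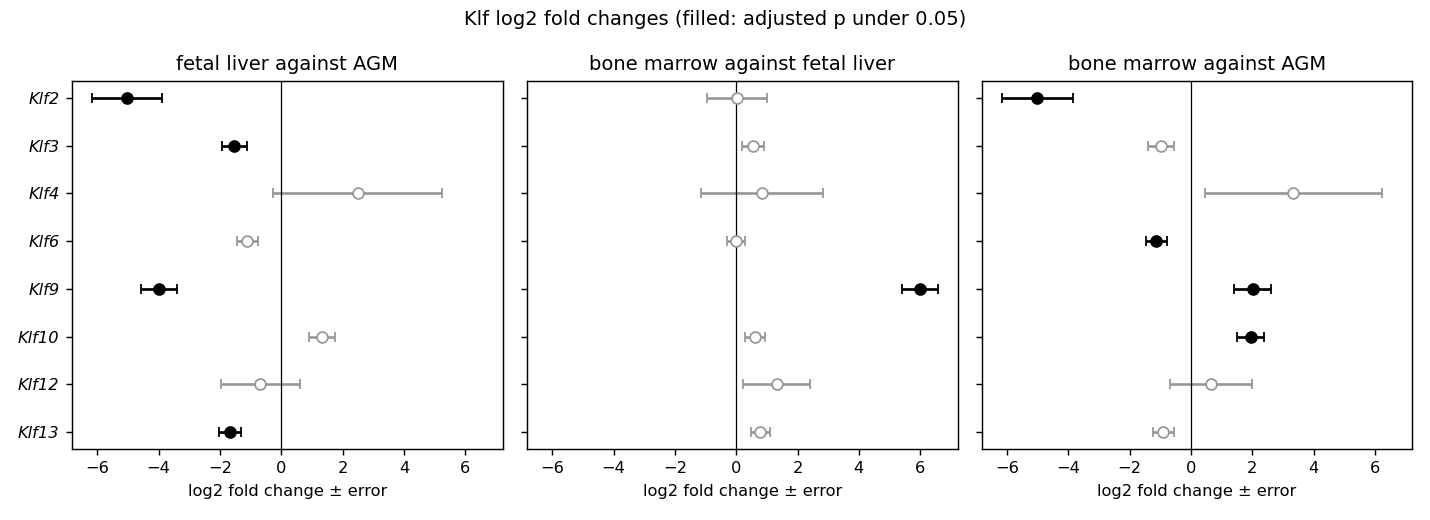
Log2 fold change of each Klf gene in the 3 comparisons (points) with its error (bars, its size over the root of the F statistic), filled where the adjusted p was under 0.05. Klf9 lies at -3.99 in fetal liver against AGM and at 6.0 in bone marrow against fetal liver, and the widest bars belong to Klf4 and Klf12, which have few UMIs.

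Counted per cell, a median of 3 of the 8 members had a UMI in an AGM cell, 1 in a fetal liver cell and 1 in a bone marrow cell. None of the 8 was found in 1.40% of the AGM cells, 24.2% of those from fetal liver and 27.4% of those from bone marrow. At least 5 members were found in 26 AGM, 2 fetal liver and 4 bone marrow cells. After thinning a cell held 2.10 ± 0.117 members on the AGM plates (SD, n = 2), 0.889 ± 0.212 in fetal liver and 0.857 ± 0.118 in bone marrow (SD, n = 5 each). The number of all genes found at that depth was lower on every bone marrow plate than on any other plate, as given above. The summed level of the members was 368 to 402 CPM on AGM plates, 74.7 to 194 on fetal liver plates and 196 to 380 on bone marrow plates. The plates of 5 members did not overlap between fetal liver and AGM, all 5 lower in fetal liver, against 14.5% of tested genes lower and 12.1% higher without overlap. The plates of 4 members did not overlap between bone marrow and AGM, against 10.9% higher and 15.1% lower. Only Klf9 did not overlap between bone marrow and fetal liver, against 3.54% higher and 4.48% lower.

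Of 9 other Klf genes listed, 8 had a row and 6 were tested. Klf7, the closest relative of Klf6, was lower in fetal liver, with 9.99 CPM against 57.7 in AGM (-2.53 ± 0.52, adjusted p = 0.00424 by edgeR). It averaged 20.7 CPM in bone marrow, which did not pass against AGM (adjusted p = 0.0827 by edgeR). Klf11, a relative of Klf10, averaged 14.2 CPM in bone marrow, 2.05 in fetal liver and 13.6 in AGM, with no call (adjusted p = 0.0751 in bone marrow against fetal liver by edgeR). Klf1 averaged 3.97 CPM in bone marrow, 0.616 in fetal liver and 3.17 in AGM, with up to 10.7 CPM on a bone marrow plate, and single cells held 44.6% to 88.8% of its UMIs in a tissue. The 4 tested genes of the related Sp family gave no call in any comparison.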

How the data were processed

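Each plate has 1 table of raw UMI counts by gene symbol and well, as the authors deposited it. The mm10 genome and the tools SAMtools, featureCounts and UMI-tools are named in the submitters' processing notes. Versions, annotation and strandedness were not given there. The same 96 well barcodes recur in all 12 tables, as wells of separate plates. Wells were kept with 1000 or more genes, 3000 or more UMIs and less than 20% of UMIs from mitochondrial genes, which left out 132 of 1152. No doublet caller was run on singly sorted cells.

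Counts were summed by origin code into 5 libraries and compared in edgeR 4.0.16 (R 4.3.3), with TMM scaling, filterByExpr and the quasi-likelihood test in 1 model over 15472 genes (2 residual and 18.0 prior degrees of freedom). The code was checked on simulated counts with known changes. Tissue CPM are means over libraries, and plate CPM use TMM over plates. Thinned shares are exact expectations, compared by an exact two-sided permutation test over plates for every tested gene. Alternatives used edgeR with RLE, DESeq2 1.42.0, limma 3.58.1 with voom, other filters and units, and fits without single plates or codes.

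The members and lists were chosen with earlier results of these data known. All 8 members are named, with up to 3 called genes of each pathway list per comparison by the smallest adjusted p, the leading marker genes, and the 3 genes most like each called member. Klf1, Klf11 and the markers named for being called or at 0 were chosen after their values were seen. Promoters are RefSeq entries of GRCm38.p6, matched by symbol. Intervals are exact Clopper-Pearson.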

Additional observations from a re-analysis of the deposited data

Results flagged for a closer look

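In 8 of 32 sets of 5 plates 1 plate stood apart from the others of its tissue by Dixon's test. Chance gives about 1 in 20 for independent sets of normally spread values. The sets were neither, since levels and shares come from the same cells and Klf2 and Klf4 had plates at or near 0. The number of flagged sets therefore cannot be set against that rate. Klf2 reached 5.67 CPM and 3.69% of cells after thinning on fetal liver plate 3, where the next plate had 0.445 CPM and 0.724%. Klf3 reached 63.4 CPM on bone marrow plate 1, against 34.1 on the next. Klf4 reached 11.3 CPM and 4.04% of cells on bone marrow plate 3, and 3.30 CPM and 2.24% on fetal liver plate 4. The levels rest mainly on 1 cell each, which held 74.7% and 82.1% of the plate's Klf4 UMIs, while the shares come from 6 positive cells each. Klf6 was lowest on fetal liver plate 2, at 27.9 CPM, where the next plate had 47.1. In the 132 wells left out, 9 UMIs of Klf3 and 4 of Klf13 were counted, both above the 3 that a count of 0 allows and under 1% of each gene's UMIs in kept cells.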

How the results depend on the processing

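No paired analysis was possible because no plate number or origin code is shared between tissues in the labels as one animal or batch. Klf9 kept its direction and call in all 26 alternatives in fetal liver against AGM and in bone marrow against fetal liver. The other called changes kept their direction in every alternative and lost their call in some. The number of changed genes, 748 in fetal liver against AGM, 732 in bone marrow against fetal liver and 1380 in bone marrow against AGM, was 2170, 2127 and 3610 with limma-voom and 1809, 1348 and 2432 when cells with at least 2 UMIs were counted. Counting cells with at least 1 UMI gave 348 in fetal liver against AGM. Fitting both tissues alone gave 2218 there and 331 in bone marrow against fetal liver. In the same order of comparisons, leaving out bone marrow plates 1 to 3 gave 2186, 1718 and 2748, and leaving out bone marrow plates 4 and 5 gave 2164, 1958 and 2466. Without fetal liver plates 4 and 5 the first comparison gave 479 and the second 365, and without fetal liver plates 1 to 3 the second gave 373. Without single plates the counts ran over 181 to 875, 117 to 741 and 329 to 1618, lowest each time without fetal liver plate 4. The number of changed members, 4, 1 and 4, was 2 in fetal liver against AGM and 0 in bone marrow against AGM with each plate as a library, and 2 and 1 when cells with a UMI were counted. It was 2 in the first comparison without fetal liver plates 4 and 5, and 2 in the second with limma-voom and without bone marrow plates 4 and 5. Without single plates it ran over 1 to 5 in the first comparison and 0 to 4 in the third.

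Calls in fetal liver against AGM were lost for Klf2 with each plate as a library (log2 fold change -4.58) and without fetal liver plates 4 and 5 (-4.20). They were lost for Klf3 with each plate as a library (-1.67), the stricter cell filter (-1.52), cells with a UMI (-1.41), and without fetal liver plates 1 to 3 (-1.43) or 4 and 5 (-1.64), and for Klf13 with cells with a UMI (-0.95). Single plates left out moved Klf2 over -7.24 to -4.12, Klf3 over -2.46 to -1.08 and Klf13 over -2.09 to -1.38. In bone marrow against AGM, each plate as a library ended the calls of Klf2 (-4.66), Klf6 (-1.11), Klf9 (2.07) and Klf10 (1.90). Counting cells with a UMI ended those of Klf6 (-0.96), Klf9 (1.56) and Klf10 (1.11). The Klf6 call was also lost with both tissues alone (-1.13), cells with 2 UMIs (-0.84), and without fetal liver plates 1 to 3 (-1.14) or 4 and 5 (-1.13), and the Klf9 call with the stricter filter (1.88) and without the cell with most UMIs on each plate (2.21). Single plates left out moved Klf2 over -6.56 to -4.09, Klf6 over -1.38 to -0.88, Klf9 over 1.55 to 2.48 and Klf10 over 1.67 to 2.23. The Klf9 share difference was 13.9 percentage points with 2 UMIs as detection and 15.8 to 18.8 without single plates. Why these calls were lost was not tested. Fits without plates also have fewer samples.

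Among uncalled values, 424 of 475 kept direction and side, 20 passed the threshold and 31 changed sign. Klf2 in bone marrow against fetal liver was -0.09 with each plate as a library, -0.46 with limma-voom, -0.82 without fetal liver plates 4 and 5, -0.18 without bone marrow plates 1 to 3 and -1.52 to 2.23 without single plates. Klf4 there was -0.22 with limma-voom and -0.83 to 2.96 without single plates. Klf6 there was 0.11 with each plate as a library, 0.10 without fetal liver plates 4 and 5, 0.01 without bone marrow plates 4 and 5 and -0.27 to 0.23 without single plates. Klf12 was 0.44 with cells with a UMI, 0.57 without the cell with most UMIs and -1.77 to 1.66 without single plates in fetal liver against AGM, and -0.07 without bone marrow plates 1 to 3 in bone marrow against AGM. The share differences in percentage points changed sign for Klf2 (-0.601 to 0.899 without single plates), Klf3 (1.07 with 2 UMIs), Klf4 (-0.0412 unthinned, -0.264 to 0.914 without single plates) and Klf10 (1.11 with 2 UMIs). Klf4 and Klf12 were found in at most 22 cells of a tissue, which limits what their tests can show.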
